A study of Mus musculus with 15 samples.

Results

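Fc receptors bind the constant part of antibodies, and the polymeric immunoglobulin receptor carries polymeric antibody across gland and epithelial cells. The 8 genes described here were selected by symbol from the 55487 genes listed in the deposited table of counts, and all 8 were among the 19006 genes with enough counts to be tested. They are the activating IgG receptors Fcgr1, Fcgr3 and Fcgr4, the signaling γ chain Fcer1g, the inhibitory IgG receptor Fcgr2b, the low-affinity IgE receptor Fcer2a (CD23), the neonatal Fc receptor Fcgrt (FcRn) and the polymeric immunoglobulin receptor Pigr.

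RNA-Seq libraries came from the conjunctiva of female WT mice, 9 to 12 weeks of age (strain label BALC/c, BALB/c in the methods). Their skin had been sensitized with MC903 (2.5 nmol per day for 7 days) and OVA. PBS (PBS group) or OVA was then applied to the eyes on 7 consecutive days ending on day 24, once per day. Mice challenged with OVA were given either control antibody (isotype group) or antibody against IL-4Rα (anti–IL-4Rα group) at a dose of 25 mg/kg, whereas the antibody of the PBS group is labeled N/A. There were 5 libraries per group, and effects of the OVA challenge and of the antibody injection on isotype against PBS cannot be told apart.

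Fcgr1, Fcgr3 and Fcgr4 signal through the ITAM of Fcer1g in macrophages, neutrophils and other myeloid cells, and Fcer1g also serves the high-affinity IgE receptor of mast cells and basophils. Fcgr2b carries an ITIM that recruits the phosphatase encoded by Inpp5d. Fcgrt protects IgG and albumin from degradation inside endothelial cells and macrophages, and Pigr takes up polymeric IgA and IgM joined by the J chain in glandular and mucosal epithelium.

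Levels are given as CPM, the counts per 1000000 counts of a library after TMM scaling, which corrects for differences in library composition. Tests were made in edgeR, which fits all 3 groups together and estimates the spread between libraries of a group. Its p-values set a difference between groups against that spread. Adjusted p-values were corrected over the 19006 genes, and a gene was called at an adjusted p under 0.05. Shares of all genes at an unadjusted p under 0.05 are not given, so counts at that level have no background beside them. Changes are log2 fold changes ± SE (1 is a doubling), and levels of a group are means ± SD of 5 libraries. Library totals ran from 48622246 to 87745024 counts, and the lowest count of any member in any library was 24 (Fcer2a). Exact permutation tests (two-sided, over all regroupings of the 10 libraries compared, p of at least 0.00794) are given beside them.

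On GRCm38, 5 of the 8 genes lie on chromosome 1. Fcgr2b (ENSMUSG00000026656, chr1:170958617-170976547), Fcgr4 (ENSMUSG00000059089, chr1:171018920-171029761), Fcgr3 (ENSMUSG00000059498, chr1:171051174-171064935) and Fcer1g (ENSMUSG00000058715, chr1:171229572-171234365) are neighbors there, and Pigr (ENSMUSG00000026417, chr1:130826684-130852249) lies on the same chromosome. The others are Fcgr1 (ENSMUSG00000015947, chr3:96282909-96293969), Fcer2a (ENSMUSG00000005540, chr8:3681737-3694175) and Fcgrt (ENSMUSG00000003420, chr7:45092990-45103851). All 8 are protein-coding. Counts of Fcgr2b and Fcgr3 were not whole in 15 of 15 libraries, as can arise when reads shared by similar genes are divided. The separate levels of these genes are therefore less certain than the others. Genes on the opposite strand overlap Fcgr2b (Gm38204) and Fcgrt (Gm45669) and held at most 1 and 4 counts in any library.

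Promoters of all 8 members were found in the RefSeq table for GRCm38.p6, each window running from 250 bases before to 50 bases after a transcription start. The letters GAGGAA, a core that PU.1, a transcription factor of myeloid cells, is known to bind, occurred on either strand in 4 of the 11 windows of the members (those of 3 genes, Fcgr1, Fcgr3 and Fcgr4) and in 28.3% of all 32851 windows. Both Fcgr3 windows (chr1:171059354-171059653 and chr1:171059345-171059644) overlap and hold the same site, which was thus counted in each. TTCNNNNGAA, a spacing favored by STAT6, occurred in 1 of the 11 windows, at an internal start of Fcer2a, and in 6.95% of all windows. The E-box CACGTG occurred in 1 of the 11, the Pigr window, and in 7.15% of all windows. None of the 3 motifs occurred in the windows of Fcgr2b, Fcer1g and Fcgrt. These matches describe letters, and binding was not tested.

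The windows of the 3 activating receptors are shown because each holds a PU.1 core close to the start, written on the other strand as TTCCTC and beginning 55 bases before the start in Fcgr1 (chr3:96293920-96294219, minus strand), 6 before in Fcgr3 (chr1:171059354-171059653, minus strand) and 22 before in Fcgr4 (chr1:171018676-171018975, plus strand). Motifs are in capitals and each line reads in the direction of transcription.
Fcgr1: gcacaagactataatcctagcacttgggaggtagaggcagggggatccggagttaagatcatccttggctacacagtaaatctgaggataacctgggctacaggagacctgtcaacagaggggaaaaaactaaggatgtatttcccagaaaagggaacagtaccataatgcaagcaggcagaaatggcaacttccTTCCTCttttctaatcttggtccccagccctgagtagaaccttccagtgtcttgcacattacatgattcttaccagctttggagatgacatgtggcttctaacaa
Fcgr3: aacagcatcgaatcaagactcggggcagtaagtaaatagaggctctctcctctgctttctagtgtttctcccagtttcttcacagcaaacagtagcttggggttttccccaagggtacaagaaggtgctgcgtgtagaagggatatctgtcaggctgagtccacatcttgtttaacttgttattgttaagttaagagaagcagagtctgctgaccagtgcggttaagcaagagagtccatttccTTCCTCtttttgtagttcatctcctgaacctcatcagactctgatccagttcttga
Fcgr4: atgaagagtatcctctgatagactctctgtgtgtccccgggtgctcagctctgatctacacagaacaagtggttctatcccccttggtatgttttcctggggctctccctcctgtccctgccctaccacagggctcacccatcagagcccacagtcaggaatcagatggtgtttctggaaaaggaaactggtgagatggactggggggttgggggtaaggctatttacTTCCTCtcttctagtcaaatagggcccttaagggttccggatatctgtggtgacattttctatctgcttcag

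The windows of the internal start of Fcer2a (chr8:3690812-3691111, minus strand) and of Pigr (chr1:130826434-130826733, plus strand) are shown for their motifs, TTCCCAAGAA in Fcer2a and the E-box 71 bases before the start in Pigr. Capitals mark the motifs, and each line again follows the direction of transcription.
Fcer2a: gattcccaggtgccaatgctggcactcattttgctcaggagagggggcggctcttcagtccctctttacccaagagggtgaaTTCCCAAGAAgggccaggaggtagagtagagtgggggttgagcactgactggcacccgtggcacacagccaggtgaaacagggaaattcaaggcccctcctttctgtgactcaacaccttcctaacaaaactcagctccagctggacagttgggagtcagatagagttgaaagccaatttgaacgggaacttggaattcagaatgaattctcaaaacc
Pigr: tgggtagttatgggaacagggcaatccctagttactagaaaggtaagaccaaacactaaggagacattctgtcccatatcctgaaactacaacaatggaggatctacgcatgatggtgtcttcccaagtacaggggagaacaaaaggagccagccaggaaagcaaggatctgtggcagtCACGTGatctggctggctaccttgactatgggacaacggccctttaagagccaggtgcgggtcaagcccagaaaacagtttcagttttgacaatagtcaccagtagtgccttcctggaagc

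In the PBS group, levels per kilobase of exon, the scale on which genes can be compared, were highest for Fcgrt (31.6 ± 3.55 CPM per kilobase) and Pigr (30.4 ± 12.2), whose libraries overlapped. Fcer1g (7.87 ± 0.724) and Fcgr3 (7.09 ± 0.562) came next and overlapped each other, and every Fcgr3 value lay above every Fcgr2b value (5.73 ± 0.542). Fcgr1 (0.658 ± 0.179), Fcer2a (0.572 ± 0.374) and Fcgr4 (0.437 ± 0.131) were the lowest and overlapped. In the isotype group Fcgr3 (20.3 ± 8.02), Fcgr2b (19.7 ± 8.23) and Fcer1g (18.3 ± 6.25) overlapped. In the anti–IL-4Rα group Pigr was at 93.4 ± 44.6 and Fcgrt at 35.1 ± 2.46, with overlapping libraries.

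After OVA challenge with isotype control, receptors for IgG and their signaling chain were higher than after PBS, on both the activating and the inhibitory side. Of the 8 members, 6 were called higher (9.53% of all genes tested were called higher) and 0 lower (7.49% of all genes; 0 members were lower at an unadjusted p under 0.05, and DESeq2 called the same number, 6). The largest change was in Fcgr4 (5.41-fold), followed by Fcgr2b (3.43-fold), Fcgr3 (2.86-fold), Fcgr1 (2.82-fold) and Fcer1g (2.33-fold), whereas Fcgrt rose 1.54-fold. In the linear model on log2(FPKM + 1), Fcgr4 (log2 fold change 1.14) came after Fcgr2b (1.51) and Fcgr3 (1.30). Pigr and Fcer2a did not pass the test. The median log2 fold change was 1.36 over the members and -0.01 over all genes tested. More cells of a type and more RNA per cell cannot be told apart in whole tissue.

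Among activating receptors, Fcgr1, which binds monomeric IgG with high affinity, read 1.53, 2.14, 1.61, 1.07 and 2.18 CPM in PBS replicates 1 to 5 and 3.0, 7.04, 4.98, 2.74 and 6.25 CPM in isotype replicates 1 to 5. The low-affinity receptor Fcgr3 read 12.4, 11.8, 12.5, 11 and 13.7 CPM in the PBS libraries and 19.2, 30.0, 41.9, 29.5 and 55.6 CPM in the isotype libraries. Fcgr4, a receptor for IgG2a and IgG2b, stood at 0.412, 0.831, 0.460, 0.516 and 0.527 CPM after PBS and at 1.45, 5.47, 2.37, 1.90 and 3.61 CPM after OVA with isotype. The groups did not overlap for any of the 3 receptors, and the isotype values were more spread out. Isotype replicate 1 was the lowest for Fcgr3 and Fcgr4, replicate 2 the highest for Fcgr1 and Fcgr4, and replicate 5 the highest for Fcgr3. Fcgr1 rose from 1.70 ± 0.463 to 4.8 ± 1.91 CPM (log2 fold change 1.5 ± 0.27, adjusted p = 0.00419). Fcgr3 rose from 12.3 ± 0.976 to 35.2 ± 13.9 CPM (1.52 ± 0.22, adjusted p = 0.00118). Fcgr4 rose from 0.549 ± 0.164 to 2.96 ± 1.62 CPM (2.44 ± 0.36, adjusted p = 0.00131).

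The γ chain Fcer1g read 7.41, 6.58, 6.21, 6.50 and 7.68 CPM in the PBS libraries and 9.44, 15.4, 18.3, 13.1 and 23.9 CPM in the isotype libraries. The inhibitory Fcgr2b read 35.4, 28.9, 31.1, 33.8 and 36.6 CPM and 57.1, 96.5, 140.2, 94.8 and 181 CPM in the same order. Neither gene had overlapping groups, and both were lowest in isotype replicate 1 and highest in isotype replicate 5. Fcer1g rose from 6.88 ± 0.633 to 16.0 ± 5.46 CPM (1.22 ± 0.20, adjusted p = 0.00215) and Fcgr2b from 33.2 ± 3.14 to 114 ± 47.7 CPM (1.78 ± 0.24, adjusted p = 0.000912). With them, 5 of 8 members had isotype libraries that were all above the PBS libraries (6.85% of all genes) and 0 of 8 had isotype libraries that were all below (5.43%). The exact permutation test gave two-sided p = 0.00794 for each of these 5 genes.

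Fcer2a, which B cells and some myeloid cells carry, read 1.46, 0.747, 0.920, 2.12 and 3.60 CPM in the PBS libraries and 1.23, 2.38, 0.741, 1.01 and 0.740 CPM in the isotype libraries. Fcgrt read 58.5, 76.7, 65.6, 60.4 and 70.5 CPM after PBS and 69.6, 83.6, 117, 94.8 and 144 CPM after OVA with isotype, where 4 of 5 isotype libraries lay above every PBS library and replicate 1 did not. Pigr read 95.1, 93.8, 111, 103 and 209 CPM and 229.6, 81.6, 115, 152 and 143 CPM, with PBS replicate 5 and isotype replicate 1 above the others. Fcgrt rose from 66.3 ± 7.47 to 102 ± 29.4 CPM (0.62 ± 0.15, adjusted p = 0.0168, exact permutation p = 0.0238). The log2 fold change of Fcer2a was -0.52 ± 0.41, adjusted p = 0.403 (exact permutation p = 0.397), with overlapping groups; it was -0.93 without isotype replicate 2 and -0.09 without PBS replicate 5. That of Pigr was 0.24 ± 0.37, adjusted p = 0.697 (exact permutation p = 0.50), and it was 0.00 without isotype replicate 1 and 0.52 without PBS replicate 5.

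**Figure D1:**
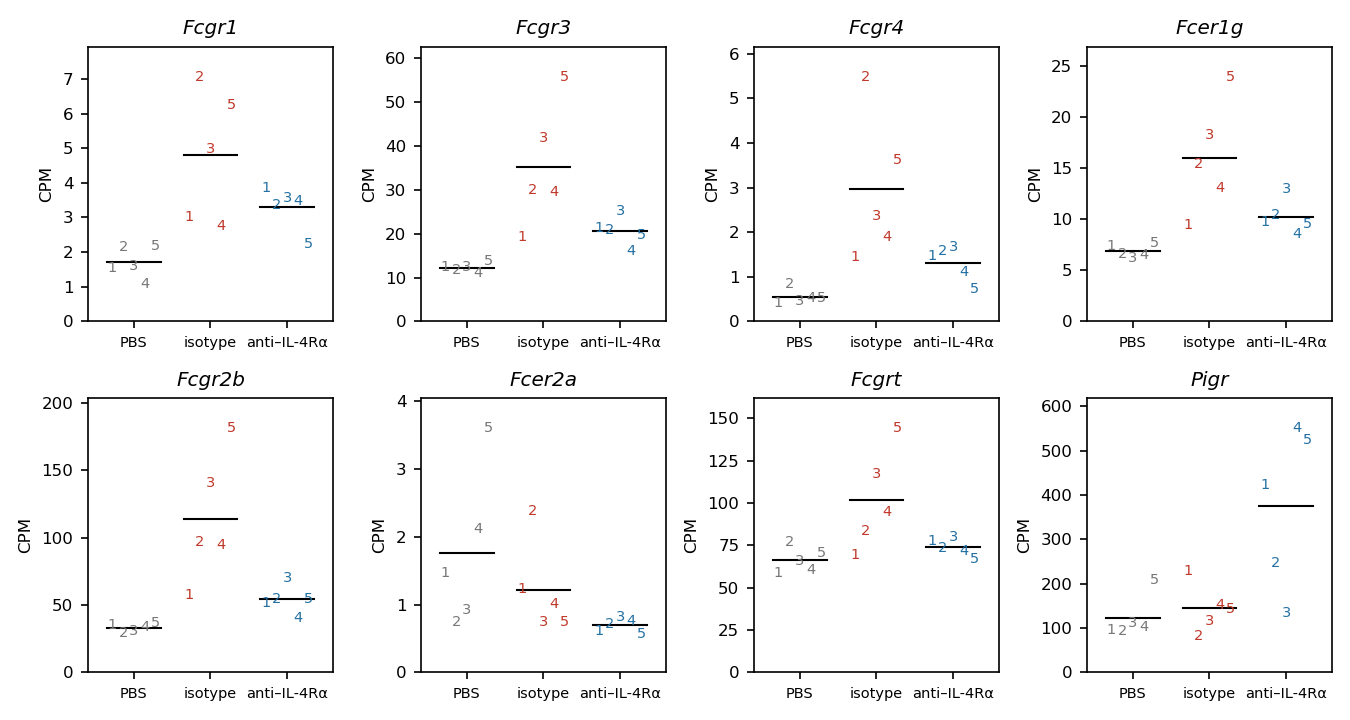
Level of each member in CPM (vertical axes, from 0) in the PBS, isotype and anti–IL-4Rα groups; each numeral is the library of that replicate number and bars are group means. For Fcgr2b the PBS libraries sit between 28.9 and 36.6 CPM, the isotype libraries between 57.1 and 181 CPM and the anti–IL-4Rα libraries between 40.2 and 70.4 CPM.

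With anti–IL-4Rα in place of isotype control, Fcgr2b, Fcgr3, Fcgr4 and the γ chain were lower and Pigr was higher. Of the 8 members, 4 were called lower (8.13% of all genes tested) and 1 higher (6.73%) in edgeR with all 3 groups. When the 2 groups were fitted alone, 0 members were called (adjusted p = 0.0590 for Fcgr2b, 0.0689 for Pigr, 0.0828 for Fcgr4, 0.0873 for Fcgr3 and 0.101 for Fcer1g; 7 members at an unadjusted p under 0.05). Of the 8 alternative fits, which include that one, 7 called Fcgr2b, Fcgr3, Fcgr4 and Pigr and 4 called Fcer1g. Fcgr4 fell to 0.443 of its isotype level, Fcgr2b to 0.477, Fcgr3 to 0.585 and Fcer1g to 0.639, whereas Pigr rose 2.61-fold. Fcgr1, Fcer2a and Fcgrt did not pass the test, but 2 of the 8 alternative fits called Fcgrt lower (lowest adjusted p = 0.0166, limma voom with quality weights). The median log2 fold change was -0.71 over the members and 0.01 over all genes tested.

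The anti–IL-4Rα libraries read 3.86, 3.35, 3.57, 3.48 and 2.24 CPM for Fcgr1 in replicates 1 to 5. For Fcgr3 they read 21.3, 20.9, 25.1, 16.0 and 19.7 CPM, and for Fcgr4 1.47, 1.57, 1.66, 1.11 and 0.732 CPM. Only anti–IL-4Rα replicate 5 lay below every isotype library for Fcgr1, and only replicate 4 did for Fcgr3, whereas 2 of 5 libraries (replicates 4 and 5) did for Fcgr4. Fcgr3 fell to 20.6 ± 3.26 CPM (-0.77 ± 0.21, adjusted p = 0.0311, exact permutation p = 0.0397) and Fcgr4 to 1.31 ± 0.383 CPM (-1.18 ± 0.34, adjusted p = 0.0345, exact permutation p = 0.0317). The log2 fold change of Fcgr1, at 3.30 ± 0.619 CPM, was -0.54 ± 0.27, adjusted p = 0.172 (exact permutation p = 0.167). Fcgr3 was not called without isotype replicate 3 or 5 or without anti–IL-4Rα replicate 1, 2, 4 or 5 (adjusted p = 0.0789, 0.0657, 0.0647, 0.0601, 0.0762 and 0.0619). Fcgr4 was not called without those libraries (adjusted p = 0.0607, 0.0697, 0.0667, 0.0568, 0.0791 and 0.0731) or without isotype replicate 2 (0.0956).

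Fcer1g read 9.71, 10.4, 13, 8.55 and 9.52 CPM and Fcgr2b 51.8, 54.8, 70.4, 40.2 and 54.5 CPM in anti–IL-4Rα replicates 1 to 5. Of these libraries, 4 of 5 lay below every isotype library for Fcgr2b (all but replicate 3) and 1 of 5 for Fcer1g (replicate 4). Fcgr2b fell to 54.3 ± 10.8 CPM (-1.07 ± 0.24, adjusted p = 0.0148, exact permutation p = 0.0159) and was called in 15 of 15 fits that left out 1 library (adjusted p = 0.00182 to 0.0442), but not with the 2 groups fitted alone (0.0590). Fcer1g fell to 10.2 ± 1.68 CPM (-0.65 ± 0.19, adjusted p = 0.0404, exact permutation p = 0.0635). It was not called without PBS replicate 2 or 4 (adjusted p = 0.0517 and 0.0528), isotype replicate 2, 3 or 5 (0.0732, 0.0952 and 0.0887) or anti–IL-4Rα replicate 1, 2, 4 or 5 (0.0859, 0.0724, 0.0943 and 0.0803). No member had anti–IL-4Rα and isotype libraries without overlap, in either direction (4.96% of all genes tested lay wholly lower and 2.35% wholly higher).

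Fcer2a read 0.618, 0.708, 0.816, 0.766 and 0.567 CPM, Fcgrt 77.3, 73.5, 80.1, 71.4 and 66.8 CPM and Pigr 423, 247, 135, 549.9 and 524 CPM in the anti–IL-4Rα libraries. For Pigr, replicates 1, 2, 4 and 5 lay above all 5 isotype libraries and replicate 3 lay among them. Pigr rose to 376 ± 179 CPM (1.38 ± 0.37, adjusted p = 0.0291, exact permutation p = 0.0397). It was not called without isotype replicate 2, 3 or 5 (adjusted p = 0.0706, 0.0757 and 0.0587) or without anti–IL-4Rα replicate 1, 4 or 5 (0.0644, 0.0730 and 0.0639). The log2 fold change of Fcgrt, at 73.8 ± 5.18 CPM, was -0.47 ± 0.15, adjusted p = 0.0557 (exact permutation p = 0.0556); without isotype replicate 1 it was called lower (-0.57, adjusted p = 0.0131). That of Fcer2a, at 0.695 ± 0.103 CPM, was -0.82 ± 0.42, adjusted p = 0.190 (exact permutation p = 0.0556).

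Against PBS, the anti–IL-4Rα group had higher mean levels of IgG receptors that did not pass the test in edgeR with all 3 groups, and Pigr rose. Of the 8 members, 1 was called higher (2.28% of all genes tested) and 0 lower (1.44%), whereas 6 had an unadjusted p under 0.05 and were higher and 1 was lower. DESeq2 called 7 members and limma voom with quality weights 2. With the 2 groups fitted alone, 5 members were called (Fcgr3, adjusted p = 0.0122, Fcgr2b, 0.0282, Fcer1g, 0.0342, Fcgr4, 0.0387, and Fcgr1, 0.0443) and Pigr was not (0.0530). No share of all genes is given for the unadjusted counts or for that fit. Libraries did not overlap for 4 of 8 members, each higher in the anti–IL-4Rα group (Fcgr1, Fcgr3, Fcer1g and Fcgr2b, 2.98% of all genes), and for 0 of 8 in the other direction (3.12%). The 3 comparisons share libraries in pairs (the isotype, the anti–IL-4Rα or the PBS libraries), so that their values are given side by side.

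**Figure D2:**
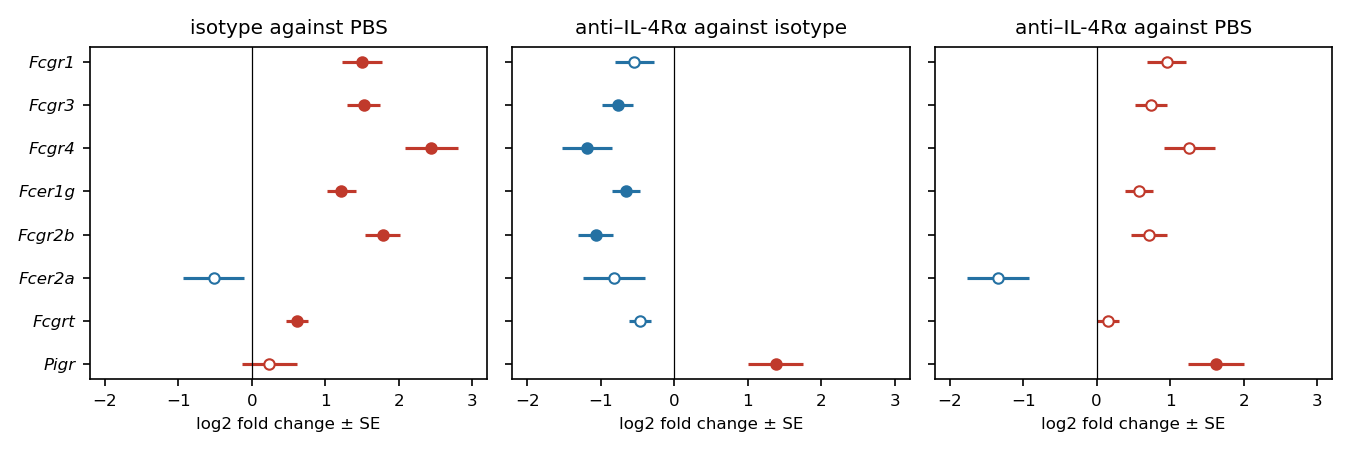
Log2 fold change (horizontal axes) of each member in the 3 comparisons; bars are 1 SE, filled points had an adjusted p under 0.05 and open points did not, with red for higher and blue for lower. Filled points number 6, 5 and 1 in isotype against PBS, anti–IL-4Rα against isotype and anti–IL-4Rα against PBS.

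Activating receptors had log2 fold changes in anti–IL-4Rα against PBS of 0.95 ± 0.27, adjusted p = 0.0641 (Fcgr1), 0.74 ± 0.22, adjusted p = 0.0654 (Fcgr3) and 1.26 ± 0.35, adjusted p = 0.0611 (Fcgr4). The log2 fold change was 0.57 ± 0.19, adjusted p = 0.0995 for Fcer1g and 0.71 ± 0.24, adjusted p = 0.0943 for Fcgr2b. Exact permutation p-values were 0.00794 for Fcgr1, Fcgr3, Fcer1g and Fcgr2b and 0.0159 for Fcgr4, for which 4 of 5 anti–IL-4Rα libraries lay above every PBS library. Without isotype replicate 1, which enters the shared estimate of the spread, Fcgr2b (adjusted p = 0.0434), Fcgr3 (0.0305), Fcgr4 (0.0450) and Fcer1g (0.0494) were called. Without isotype replicate 2 Fcgr1 (0.0481) and Fcgr4 (0.0324) were called, and without isotype replicate 5 Fcgr3 was (0.0371).

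Pigr rose in anti–IL-4Rα against PBS (1.62 ± 0.38, adjusted p = 0.0362, exact permutation p = 0.0159), with 4 of 5 anti–IL-4Rα libraries above every PBS library. It was not called without PBS replicate 1, 2, 3 or 4 (adjusted p = 0.0902, 0.0940, 0.0714 and 0.0845) or anti–IL-4Rα replicate 1, 2, 4 or 5 (0.0757, 0.0502, 0.0764 and 0.0826), nor with the 2 groups fitted alone (0.0530) or in the linear model on log2(FPKM + 1) (0.0544). Fcgrt had a log2 fold change of 0.15 ± 0.15, adjusted p = 0.592 (exact permutation p = 0.103). That of Fcer2a was -1.34 ± 0.42, adjusted p = 0.0816 (exact permutation p = 0.0238), with 3 of 5 anti–IL-4Rα libraries (replicates 1, 2 and 5) below every PBS library.

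The balance of activating over inhibitory IgG receptors was described per library as the log2 ratio of summed Fcgr1, Fcgr3 and Fcgr4 to Fcgr2b, each per kilobase. It was 0.40, 0.73, 0.61, 0.30 and 0.53 in PBS replicates 1 to 5, 0.44, 0.55, 0.21, 0.26 and 0.26 in the isotype libraries and 0.74, 0.63, 0.50, 0.72 and 0.45 in the anti–IL-4Rα libraries. Group means were 0.52 ± 0.17, 0.34 ± 0.15 and 0.60 ± 0.13, and all 3 groups overlapped. Fcgr3 made up most of the sum, and its own ratio to Fcgr2b was 0.31 ± 0.13, 0.06 ± 0.06 and 0.35 ± 0.09; the isotype values (-0.01 to 0.17) lay below all anti–IL-4Rα values (0.25 to 0.45). For Fcgr4 over Fcgr2b the means were -3.75 ± 0.49, -3.12 ± 0.69 and -3.21 ± 0.46. The ratio was not tested, and any division of shared reads between Fcgr2b and Fcgr3 would enter it.

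Among markers of monocytes and macrophages, which carry all 4 Fcγ receptors, 8 of 12 were called higher alongside them in isotype against PBS. Medians of lists are log2 fold changes, beside -0.01, 0.01 and 0.00 over all genes tested in isotype against PBS, anti–IL-4Rα against isotype and anti–IL-4Rα against PBS. Of 12 markers tested, 8 were called higher in isotype against PBS (median 0.87), with Ccr2 at 1.39 ± 0.25, adjusted p = 0.00353, C1qb at 1.20 ± 0.17, adjusted p = 0.00103 and C1qc at 1.07 ± 0.16, adjusted p = 0.00151. Lyz2 (0.30 ± 0.16, adjusted p = 0.198), Itgam (0.05 ± 0.18, 0.876), Cd14 (0.31 ± 0.22, 0.345) and Cd68 (0.44 ± 0.17, 0.0820) did not pass in that comparison. Against isotype, 1 of 12 was called lower with anti–IL-4Rα (median -0.31). With anti–IL-4Rα against PBS 5 of 12 were called higher, and 0 in each fit that left out 1 of PBS replicates 1, 2 and 4 or of anti–IL-4Rα replicates 1, 2 and 5. Summed levels were 731, 693, 743, 672 and 671 CPM in the PBS libraries. They were 779, 956, 1297, 999.5 and 1407 CPM in the isotype libraries and 996, 1016, 1254, 827 and 963 CPM in the anti–IL-4Rα libraries. The most abundant marker was Lyz2 (30.4% of the sum), and 0 of 12 were at 0 in all libraries. Whether cell numbers account for the receptor levels was not tested.

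Between libraries of the same group, 17 of 88 pairs of a member and a marker list passed at an adjusted p under 0.05 (permutation within groups, all with positive r, adjusted over the 88 pairs). Fcgr3 followed the monocyte and macrophage score with r = 0.93 (adjusted p = 0.00739), rho = 0.87 (0.0158) and r = 0.88 without the 2 libraries farthest from the median of the score (isotype replicates 1 and 5). Fcgr2b had r = 0.90 (adjusted p = 0.00948), rho = 0.76 (0.0595) and r = 0.80 without the same 2 libraries. Fcer1g had r = 0.88 (adjusted p = 0.0106), rho = 0.75 (0.0643) and r = 0.74 without them. Fcgrt had r = 0.83 (adjusted p = 0.0119), rho = 0.73 (0.0725) and r = 0.59 without them. Fcgr1 (r = 0.41) and Fcgr4 (r = 0.37) did not pass with this score. The groups held 5 libraries each, and the correlations do not separate cell number from level per cell.

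**Figure D3:**
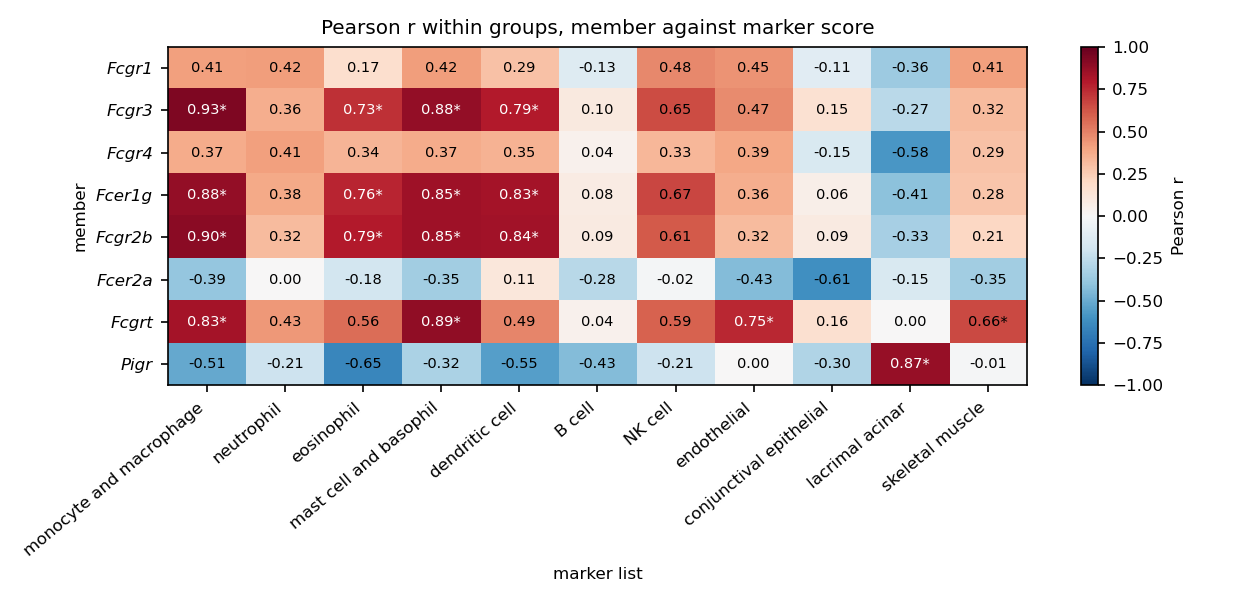
Pearson r between each member (vertical axis) and the mean z-score of each marker list (horizontal axis) over 15 libraries, centered within groups; color runs from -1 (blue) to 1 (red) and asterisks mark an adjusted p under 0.05. Asterisks stand at 4 lists each for Fcgr3, Fcer1g, Fcgr2b and Fcgrt, at 1 for Pigr and at 0 for Fcgr1, Fcgr4 and Fcer2a.

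Mast cell and basophil markers moved with the same members only in part. In isotype against PBS, Kit (-0.20 ± 0.11, adjusted p = 0.220), Mcpt4 (0.32 ± 0.18, 0.239) and Cpa3 (0.52 ± 0.20, 0.0825) did not pass. Kit was at 0.02 ± 0.11, adjusted p = 0.929 in anti–IL-4Rα against isotype. Of 9 tested, 6 were called higher in isotype against PBS (median 0.74) and 3 lower in anti–IL-4Rα against isotype (median -0.54). Mcpt8, a protease of basophils, had the largest changes, 6.06 ± 0.71, adjusted p = 0.000409 and -1.74 ± 0.51, adjusted p = 0.0384, and was the 1 of 9 called in anti–IL-4Rα against PBS (4.32 ± 0.72, adjusted p = 0.0147). Without isotype replicate 5 its first 2 values were 5.46 and -1.13 (adjusted p = 0.000495 and 0.0991). Hdc, the histamine-forming enzyme, was at 2.44 ± 0.34, adjusted p = 0.00102 and -1.58 ± 0.33, adjusted p = 0.0118 and Tpsab1, a tryptase, at 2.25 ± 0.28, adjusted p = 0.000567 and -1.43 ± 0.27, adjusted p = 0.00769. Summed levels were 165 ± 21 CPM in the PBS group, 246 ± 66.0 CPM in the isotype group and 183 ± 18.5 CPM in the anti–IL-4Rα group, with Kit the most abundant in the PBS group (27.6% of the sum), Mcpt4 in the isotype (19.7%) and anti–IL-4Rα (22.9%) groups, and 0 markers at 0 throughout. With this score, r was 0.89 for Fcgrt (adjusted p = 0.0104; rho = 0.88, 0.0201; r = 0.78 without isotype replicates 1 and 5) and 0.88 for Fcgr3 (adjusted p = 0.00891; rho = 0.80, 0.0428; r = 0.74 without them). It was 0.85 for Fcgr2b (adjusted p = 0.0106; rho = 0.70, 0.110; r = 0.66) and 0.85 for Fcer1g (adjusted p = 0.0119; rho = 0.80, 0.0428; r = 0.66).

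Among dendritic cell markers 3 of 6 were called higher in isotype against PBS (median 0.74; Flt3 at 1.32 ± 0.26, adjusted p = 0.00663) and 1 of 6 lower in anti–IL-4Rα against isotype (Cd209a, the most abundant at 40.3% of the sum, at -0.63 ± 0.20, adjusted p = 0.0458). Their sum was 34.5 ± 3.18, 52.6 ± 13.6 and 39.3 ± 8.66 CPM in the PBS, isotype and anti–IL-4Rα groups. Within groups the dendritic score had r = 0.84 with Fcgr2b (adjusted p = 0.00739; rho = 0.91, 0.000880; r = 0.88 without anti–IL-4Rα replicates 3 and 4), 0.83 with Fcer1g (adjusted p = 0.00739; rho = 0.85, 0.0111; r = 0.87) and 0.79 with Fcgr3 (adjusted p = 0.0104; rho = 0.71, 0.0452; r = 0.82). Eosinophil markers, with 3 of 3 tested called higher in isotype against PBS (Ccr3, the most abundant at 57.6% of the sum, at 1.82 ± 0.36, adjusted p = 0.00598) and 1 of 3 (Ccr3, 1.63 ± 0.36, adjusted p = 0.0309) in anti–IL-4Rα against PBS, summed to 2.94 ± 0.336, 9.56 ± 3.85 and 8.22 ± 4.45 CPM. Their score had r = 0.79 with Fcgr2b (adjusted p = 0.00739; rho = 0.74, 0.0428; r = 0.82 without anti–IL-4Rα replicates 3 and 4), 0.76 with Fcer1g (adjusted p = 0.00891; rho = 0.77, 0.0428; r = 0.80) and 0.73 with Fcgr3 (adjusted p = 0.0106; rho = 0.63, 0.156; r = 0.77).

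Neutrophil markers, of cells that carry Fcgr3 and Fcgr4, included 4 of 6 called higher in isotype against PBS (median 1.23) and 3 of 6 called lower in anti–IL-4Rα against isotype (median -1.34). Retnlg was at 3.35 ± 0.51, adjusted p = 0.00161 and -1.64 ± 0.46, adjusted p = 0.0332, the collagenase gene Mmp8 at 1.37 ± 0.35, adjusted p = 0.0180 and -2.46 ± 0.39, adjusted p = 0.00371 (0.0236 to 0.0988 CPM in the anti–IL-4Rα libraries; tested in 10 of 15 fits that left out 1 library), and Csf3r, the receptor for G-CSF, at 2.11 ± 0.26, adjusted p = 0.000596 and -1.53 ± 0.26, adjusted p = 0.00479. Their sum was 52.5, 26.9, 45.9, 38.2 and 40.1 CPM in the PBS libraries, 59.3, 117, 81.4, 84.0 and 112 CPM in the isotype libraries and 29.3, 36.9, 31.2, 105 and 21.7 CPM in the anti–IL-4Rα libraries, with Ngp at 0 in every PBS library. S100a9 was the most abundant in the means of all 3 groups, but its mean with anti–IL-4Rα rests on replicate 4 (52.3 CPM, the others 1.51 to 4.30, where Cxcr2 was at 11.4 to 14.4). Without that library S100a9 was called lower than with isotype (-3.21, adjusted p = 0.000770), in place of -1.16 ± 0.78, adjusted p = 0.307. Of the listed neutrophil markers, Ly6g (at most 0.0512 CPM in any library) and Ngp (at most 0.0337 CPM) were too low to be tested. No member passed with the neutrophil score.

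NK cell markers, which in mice accompany Fcgr3, were called higher for 4 of 4 tested in isotype against PBS (median 2.05) and lower for 1 of 4 in anti–IL-4Rα against isotype (median -1.10). Gzma, a granzyme and the most abundant in the isotype (56.8% of the sum) and anti–IL-4Rα (42.9%) groups (Prf1, at 45.9%, in the PBS group), was at 2.59 ± 0.32, adjusted p = 0.000567 and -1.75 ± 0.31, adjusted p = 0.00537, and Klra8 was at 0 in all 15 libraries. Their sum was 2.07 ± 0.321, 8.10 ± 4.19 and 3.18 ± 0.758 CPM in the 3 groups. B cell markers, of cells that carry Fcgr2b and Fcer2a, had 1 of 7 called higher (Cd22, 2.07 ± 0.42, adjusted p = 0.00694) and 1 of 7 lower (Blk, -0.80 ± 0.25, adjusted p = 0.0444) in isotype against PBS, had 1 of 7 called lower in anti–IL-4Rα against isotype (Cd22, -1.32 ± 0.41, adjusted p = 0.0451), and summed to 4.98 ± 1.03, 7.92 ± 1.67 and 7.78 ± 4.21 CPM. Blk was the most abundant B cell marker in the PBS group (38% of the sum), Cd22 in the isotype group (32.1%) and Cd79b in the mean of the anti–IL-4Rα group (23.3%), where it was at 3.85 CPM in replicate 3 and at 1.13 to 1.51 CPM in the others, beside 1.24 to 1.49 CPM of Blk. Neither list passed with a member, and Fcer2a had r = -0.28 with the B cell score.

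Endothelial markers, of cells that carry Fcgrt, had 1 of 7 called higher (Pecam1, 0.33 ± 0.10, adjusted p = 0.0440) and 1 of 7 lower (Cldn5, -0.38 ± 0.11, adjusted p = 0.0345) in isotype against PBS, and summed to 196 ± 31.0, 199.7 ± 26.5 and 192 ± 24.1 CPM in the 3 groups, with Vwf the most abundant in the PBS group (25.2% of the sum) and Pecam1 in the others (29.5% and 25.4%). Within groups Fcgrt had r = 0.75 with this score (adjusted p = 0.00891; rho = 0.76, 0.0428; r = 0.78 without PBS replicate 2 and anti–IL-4Rα replicate 1). Skeletal muscle markers, 5 of 6 called lower in isotype against PBS (median -0.64), summed to 7632 ± 1987, 4792 ± 850.0 and 5773 ± 902 CPM, with Myh4 (31.2% of the sum) at -0.62 ± 0.14, adjusted p = 0.0103 and Ckm at -0.82 ± 0.18, adjusted p = 0.00982. Fcgrt had r = 0.66 with the muscle score (adjusted p = 0.0256; rho = 0.82, 0.0158; r = 0.64 without PBS replicates 1 and 2). Whether these tissues account for Fcgrt levels was not tested.

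Pigr followed markers of lacrimal acinar cells, a secretory cell type that is known to carry it. The sum of the 9 markers was 723, 748, 776, 717 and 1927 CPM in the PBS libraries and 1662, 523, 991, 1232 and 806 CPM in the isotype libraries. It was 3771, 2165, 803, 4948 and 4870.4 CPM in the anti–IL-4Rα libraries, where replicate 3 was low for both the markers and Pigr, and PBS replicate 5 was the highest PBS library for both. Within groups r was 0.87 (adjusted p = 0.00739), rho 0.92 (adjusted p = 0.00660) and r 0.79 without isotype replicate 2 and anti–IL-4Rα replicate 3. The most abundant marker was Ltf in the PBS (41.6% of the sum) and isotype (36.5%) groups and Lpo in the anti–IL-4Rα group (40.3%), and 0 of 9 were at 0 in all libraries. 1 of 9 was called higher in isotype against PBS (Spdef, 0.87 ± 0.16, adjusted p = 0.00366), 1 in anti–IL-4Rα against isotype (Aqp5, 0.48 ± 0.15, adjusted p = 0.0444) and 2 in anti–IL-4Rα against PBS (Spdef, 1.14 ± 0.16, adjusted p = 0.00569, and Aqp5, 0.61 ± 0.15, adjusted p = 0.0398), with medians of 0.18, 0.87 and 1.10 (the first was -0.15 without isotype replicate 1 and -0.02 without replicate 4). The sum mixes genes of unlike level: in PBS replicate 1 Ltf was at 469 CPM and Aqp5 at 115 CPM, beside 1.65 CPM of Lpo. Lpo, Bhlha15 and Car6 were not called in any comparison in edgeR with all 3 groups. In anti–IL-4Rα against isotype they were at 2.72 ± 1.58 (adjusted p = 0.243), 2.70 ± 1.33 (0.174) and 2.48 ± 1.04 (0.116). Whether the amount of gland tissue in a sample accounts for the level of Pigr was not tested.

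**Figure D4:**
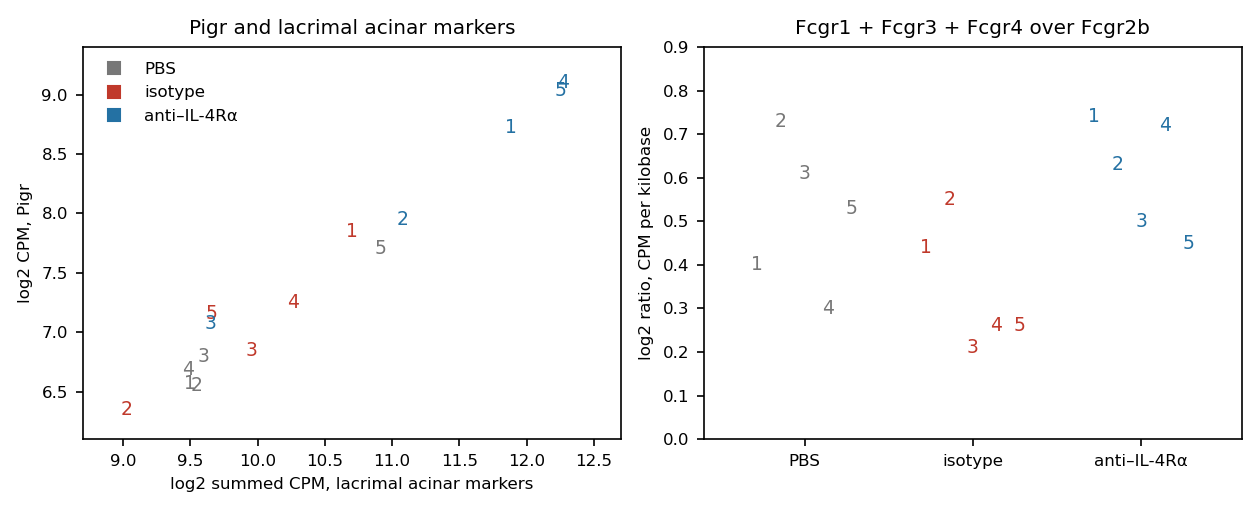
Left, log2 CPM of Pigr (vertical axis) against log2 summed CPM of 9 lacrimal acinar markers (horizontal axis); right, log2 ratio of Fcgr1, Fcgr3 and Fcgr4 to Fcgr2b per kilobase by group; each numeral is a library. Replicates 1, 4 and 5 of the anti–IL-4Rα group have both the highest Pigr (423, 549.9 and 524 CPM) and the highest marker sums (3771, 4948 and 4870.4 CPM), and the ratio spans 0.21 to 0.74.

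In 3 libraries, anti–IL-4Rα replicates 1, 4 and 5, a single gene, Mucl2 (chosen after its values were seen), took 5.13%, 6.21% and 6.11% of all counts. Without these 3 libraries, a choice made after seeing the data that leaves 2 anti–IL-4Rα libraries, 0 members were called in anti–IL-4Rα against isotype and 0 in anti–IL-4Rα against PBS in edgeR (1 and 5 members at an unadjusted p under 0.05). Pigr was then at 0.42 (adjusted p = 0.603) and 0.66 (adjusted p = 0.535), and Fcgr2b at -0.86 (adjusted p = 0.260) against isotype. All 6 calls of isotype against PBS were made in that fit.

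Genes that work with these receptors were grouped by role. Of 15 genes of activating receptor signaling, 10 were called higher in isotype against PBS (median 0.97) and 0 lower (0 at an unadjusted p under 0.05; 11 called with DESeq2). Among them the PI3K subunit gene Pik3cd was at 1.16 ± 0.21, adjusted p = 0.00381, the Src-family kinase gene Fgr at 1.15 ± 0.22, adjusted p = 0.00547 and the Tec-family kinase gene Btk at 1.12 ± 0.23, adjusted p = 0.00688, and Syk, the kinase that docks on the Fcer1g ITAM, was at 1.02 ± 0.16, adjusted p = 0.00173. With anti–IL-4Rα, 1 of 15 was called lower than with isotype (Syk, -0.49 ± 0.15, adjusted p = 0.0491; 6 lower at an unadjusted p under 0.05, 3 with DESeq2 and 6 with limma voom), and 1 of 15 was called higher against PBS (10 at an unadjusted p under 0.05, 8 with DESeq2 and 2 with limma voom). Of 7 genes of inhibitory receptor signaling, 3 were called higher in isotype against PBS (median 0.34), the phosphatase gene Inpp5d at 1.08 ± 0.18, adjusted p = 0.00246, Dok2 at 0.76 ± 0.20, adjusted p = 0.0192 and Dok3 at 0.73 ± 0.18, adjusted p = 0.0174. In edgeR 0 of 7 were called in anti–IL-4Rα against isotype (median -0.19; 2 at an unadjusted p under 0.05, 1 with DESeq2 and 2 with limma voom) and 0 of 7 in anti–IL-4Rα against PBS (median 0.19; 3, 2 and 0).

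Among other receptors that pair with Fcer1g, 4 of 6 were called higher and 1 lower in isotype against PBS (median 1.02). Without PBS replicate 2 or 3 or isotype replicate 2, 3 or 5, 1 was called higher (Ncr1). This NK cell receptor was at 1.75 ± 0.32, adjusted p = 0.00414 and Clec4d, a C-type lectin of myeloid cells, at 1.5 ± 0.46, adjusted p = 0.0374, whereas Lilra5 was at -1.11 ± 0.21, adjusted p = 0.00494 and then 1.21 ± 0.21, adjusted p = 0.00534 in anti–IL-4Rα against isotype. Relatives of the Fc receptors had 4 of 9 called higher in isotype against PBS (median 0.55; 0.28 without isotype replicate 4 and 1.13 without PBS replicate 4), among them Fcrlb (2.86 ± 0.50, adjusted p = 0.00334), the high-affinity IgE receptor gene Fcer1a (2.54 ± 0.35, adjusted p = 0.000951) and Fcrla (2.0 ± 0.34, adjusted p = 0.00305). Fcrlb was also the 1 of 9 called lower in anti–IL-4Rα against isotype (-2.29 ± 0.48, adjusted p = 0.0120), and in anti–IL-4Rα against PBS 1 higher (Fcer1a, 1.66 ± 0.35, adjusted p = 0.0291).

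Among genes of the antibodies themselves, 4 of 7 tested were called higher in isotype against PBS (median 2.27). The heavy chain gene of IgA, a Pigr ligand, read 5.25, 5.41, 8.81, 4.72 and 5.98 CPM in the PBS libraries and 39.3, 14.3, 5.00, 39.5 and 47.1 CPM in the isotype libraries. In the anti–IL-4Rα libraries Igha read 78.1, 133, 146, 48.2 and 96.1 CPM, and it rose in isotype against PBS (2.27 ± 0.49, adjusted p = 0.00942), in anti–IL-4Rα against isotype (1.79 ± 0.48, adjusted p = 0.0273) and in anti–IL-4Rα against PBS (4.05 ± 0.53, adjusted p = 0.00411). Jchain, the joining chain that Pigr binds, rose against PBS with isotype (3.97 ± 0.76, adjusted p = 0.00540; 3.36 without isotype replicate 5) and with anti–IL-4Rα (5.29 ± 0.80, adjusted p = 0.00928; 4.35 without anti–IL-4Rα replicate 3). Ighg1, a ligand of Fcgr2b and Fcgr3, was at 8.55 ± 1.37, adjusted p = 0.00216 and 9.53 ± 1.42, adjusted p = 0.00847 against PBS, and at 7.57 and 7.45 without the same libraries. Ighe, the ligand of Fcer2a, was at 0 in every PBS library and at 0.695, 1.36, 1.16, 6.94 and 6.14 CPM in the isotype libraries. The isotype mean (3.26 CPM) was at least 63.8-fold higher than a floor of 3 counts per PBS library. In the anti–IL-4Rα libraries Ighe read 0.0852, 2.02, 0.0146, 0.0247 and 0.0472 CPM, and its log2 fold change against isotype was -2.80 ± 1.18, adjusted p = 0.130; without replicate 2, the highest, it was -6.24 (adjusted p = 0.0168, with 0.225 the highest over the fits without 1 library). With Ighe at that bound the list median in isotype against PBS was 2.27. In anti–IL-4Rα against PBS 3 of 7 were called higher.

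Among partner proteins, B2m, which pairs with Fcgrt, and Adam10, the protease that sheds CD23, were both called higher in isotype against PBS (2 of 2 tested), B2m at 0.32 ± 0.10, adjusted p = 0.0383 and Adam10 at 0.37 ± 0.06, adjusted p = 0.00180. Adam10 fell in anti–IL-4Rα against isotype (-0.35 ± 0.06, adjusted p = 0.00428). Of 9 tested genes of the interferon-γ response, which raises Fcgr1 and Fcgr4 in macrophages, 6 were called higher in isotype against PBS (median 0.78). Among these 6, Cxcl10 at 2.32 ± 0.54, adjusted p = 0.0125, Gbp4 at 0.99 ± 0.32, adjusted p = 0.0455 and Gbp3 at 0.78 ± 0.20, adjusted p = 0.0205 had the largest changes. Isotype replicate 2 was far above the other isotype libraries for Cxcl10 (8.30 CPM, the others 1.01 to 2.41) and Gbp4 (52.3 CPM, the others 14.8 to 19.1). Without it, Cxcl10 was at 1.48 (adjusted p = 0.0232), Gbp4 at 0.45 (0.0686) and 3 of 9 were called (median 0.50). All 9 had negative log2 fold changes in anti–IL-4Rα against isotype (median -0.47), and 0 were called there in edgeR (3 at an unadjusted p under 0.05, 1 with DESeq2 and 2 with limma voom). Without isotype replicate 2, 8 of 9 were negative (median -0.15), and 2, 1 and 1 were called without isotype replicate 1, isotype replicate 4 and anti–IL-4Rα replicate 3. Among 10 conjunctival epithelial markers 0 were called in edgeR in isotype against PBS (0 at an unadjusted p under 0.05, 0 with DESeq2 and 0 with limma voom), and 1 was called higher in anti–IL-4Rα against isotype (Krt18, 1.16 ± 0.32, adjusted p = 0.0313); they summed to 5523 ± 905, 5519.5 ± 635 and 4989 ± 813 CPM, with Muc5ac (29.3% of the sum) the most abundant.

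Some of the list genes named here lost their call when 1 library was left out. Over the 15 such fits of isotype against PBS, Blk, Pecam1 and Gbp4 were each called in 4 (highest adjusted p = 0.106, 0.105 and 0.0960), Clec4d in 7 (0.0895), B2m in 8 (0.0920) and Cldn5 in 9 (0.0882). For anti–IL-4Rα against isotype, Syk was called in 2 (0.115), Cd209a and Aqp5 in 3 (0.102 and 0.108), Cd22 in 5 (0.113), Krt18 and Mcpt8 in 8 (0.0776 and 0.0991), Retnlg in 9 (0.0827) and Igha in 13 (0.0657). For anti–IL-4Rα against PBS, Aqp5 was called in 6 (0.0983), Fcer1a in 8 (0.0786) and Ccr3 in 9 (0.0757). In isotype against PBS, Igha and Cxcl10 were called in all 15 but in 7 of the 8 alternative fits (highest adjusted p = 0.0674 and 0.0548). The same held for Mcpt8 in anti–IL-4Rα against PBS (0.131). Counts of called genes, both directions together, moved as well. In isotype against PBS they ran over these fits from 1 to 4 for dendritic cell, 2 to 4 for neutrophil, 1 to 3 for B cell, 0 to 2 for endothelial, 4 to 7 for mast cell and basophil and 3 to 5 for muscle markers and for inhibitory signaling. With anti–IL-4Rα against isotype they ran from 0 to 6 for activating signaling, 0 to 2 for inhibitory signaling, 1 to 6 for monocyte and macrophage, 1 to 4 for neutrophil, 2 to 5 for mast cell and basophil, 0 to 3 for dendritic cell, 0 to 2 for epithelial and 0 to 4 for lacrimal markers, and 1 to 3 for the relatives and for the other receptors that pair with Fcer1g. For anti–IL-4Rα set against PBS they ran from 1 to 7 for activating signaling and from 0 to 6 for monocyte and macrophage, 0 to 2 for eosinophil, 1 to 3 for mast cell and basophil and 1 to 3 for lacrimal markers.

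The genes most like each member in their pattern within groups were sought among 15482 genes with a mean of at least 1 CPM. For Fcgr2b they were Alox5ap (r = 0.986), Nckap1l (0.985) and Laptm5 (0.985), which leukocytes express. Fcer1g was closest to Sirpa (0.978), Cd53 (0.976) and Ms4a4a (0.973), and Fcgr3 to Ms4a4a (0.975), Gm21188 (0.970) and P2ry6 (0.970). Fcgr4 was closest to Gm4070 (0.949), Gbp7 (0.915) and Parp14 (0.915), and Fcgr1 to Ifi204 (0.880), Dlst (0.879) and Praf2 (0.878); Gbp7, Parp14 and Ifi204 are known interferon-induced genes. Fcgrt was closest to Il6st (0.947), Stard8 (0.943) and the macrophage gene C1qa (0.937). Pigr was closest to Krtcap2 (0.989), Bmyc (0.984) and Xbp1 (0.982), a transcription factor of secretory cells, and Fcer2a to Zcchc3 (0.828), Gm32856 (0.798) and Snapc4 (0.795). These are the highest of many correlations over 15 libraries and were not tested.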

How the data were processed

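The deposited table holds estimated counts of genes in 15 conjunctival libraries, 5 in each of 3 groups taken from the labels. According to the methods, poly(A) RNA was sequenced in pairs, filtered at a quality score of 20, and mapped uniquely to B38 with Ensembl release 100 in Array Studio, whose function for reporting gene and transcript counts was used; how it divided shared reads is not stated, and 2 outliers that the methods mention are not identified. Between 4363 and 6007 genes per library had values that were not whole (by more than 0.001), and counts were rounded. Totals were 48622246 to 87745024 counts; 1 CPM corresponded to 40.5 to 97.7 counts after TMM scaling. Positions and exon lengths came from GENCODE M21 (GRCm38), which held 55141 of the 55487 identifiers.

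Genes that reached 10 counts in 5 or more libraries (19006 genes) were fitted in edgeR 4.0.16 (R 4.3.3; TMM, quasi-likelihood, 1 term per group, two-sided), and p-values were adjusted by Benjamini-Hochberg over these genes. Log2 CPM used a prior count of 2. Exact permutation tests used log2 CPM. Marker scores were means of z-scored log2 CPM, centered within groups, with 100000 permutations within groups; each r is also given without the 2 libraries farthest from the score median. The members and the 18 lists (150 genes, 134 tested) were chosen with earlier results of these data known. Named genes were all members, list genes with an adjusted p under 0.05 (largest changes first), the most abundant marker and markers at 0, and the 3 genes most like each member; some genes and a motif are not reported here. Motifs were chosen after the promoters had been read. Marker lists covered monocytes and macrophages, neutrophils, eosinophils, mast cells and basophils, dendritic cells, B cells, NK cells, endothelium, epithelium, lacrimal acini and muscle; some lists share cell types.

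Alternatives were upper quartile factors, DESeq2 1.42.0, limma 3.58.1 voom with quality weights, a linear model on log2(FPKM + 1) scaled at the 75th percentile, no filter, filterByExpr, the 2 groups alone, the replicate number as a block, a fold of at least 1.5, and each library left out in turn. Leaving out the 3 libraries with a gene over 5% of counts was chosen after seeing the data. The steps were tested on simulated data. Python 3.11.15, pandas 2.3.3, numpy 2.4.6, scipy 1.17.1 and matplotlib 3.10.9 were used.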

Additional observations from a re-analysis of the deposited data

Results flagged for a closer look

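In 6 of 60 groups of 5 libraries (members, marker sums and the receptor ratio, each in 3 groups), 1 library stood apart from the other 4 by a gap of more than 0.71 of the range of its group; chance alone gives about 1 in 20. Pigr was at 209 CPM in PBS replicate 5, with the other PBS libraries between 93.8 and 111 CPM (gap over range 0.851). In the same library the lacrimal acinar markers summed to 1927 CPM, with the others between 717 and 776 CPM (0.952). Fcgr4 was at 0.831 CPM in PBS replicate 2, with the others between 0.412 and 0.527 CPM (0.726).

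Neutrophil markers summed to 105 CPM in anti–IL-4Rα replicate 4, with the others between 21.7 and 36.9 CPM (0.817). B cell markers summed to 15.2 CPM in anti–IL-4Rα replicate 3, with the others between 4.89 and 6.69 CPM (0.826). NK cell markers summed to 15.5 CPM in isotype replicate 5, with the others between 5.29 and 7.09 CPM (0.824).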

How the results depend on the processing

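In isotype against PBS, 6 members were called under all 8 other fits, in the 15 fits that left out 1 library and without the 3 libraries with a gene over 5% of counts. No member changed sign under any of these fits in any comparison. In anti–IL-4Rα against isotype the 5 called members became 0 when the 2 groups were fitted alone (7 at an unadjusted p under 0.05, 6 with DESeq2), 0 without the 3 libraries with a gene over 5% of counts, and 1 to 6 when 1 library was left out. In anti–IL-4Rα against PBS the 1 called member (Pigr) became 7 with DESeq2 (all but Fcgrt), 2 with limma voom with quality weights, 0 with the linear model on log2(FPKM + 1) (7 at an unadjusted p under 0.05), 5 with the 2 groups alone (Fcgr1, Fcgr2b, Fcgr3, Fcgr4 and Fcer1g, without Pigr), 0 without the 3 libraries with a gene over 5% of counts, and 0 to 5 when 1 library was left out. The causes were not tested, except that the 2 groups alone and the fits without libraries have fewer libraries.

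Over all genes, the number called in isotype against PBS (3235) was 1306 with a fold of at least 1.5 and 1863 to 3936 when 1 library was left out. In anti–IL-4Rα against isotype it was 2826, and became 1749 with no filter, 677 with the 2 groups alone, 44 without the 3 libraries with a gene over 5% of counts, 1010 with a fold of at least 1.5 and 882 to 4206 when 1 library was left out. In anti–IL-4Rα against PBS it was 707, and became 1966 with DESeq2, 2318 with limma voom with quality weights, 327 with no filter, 19 without the 3 libraries with a gene over 5% of counts, 272 with a fold of at least 1.5 and 82 to 2029 when 1 library was left out. The changes in the log2 ratio of activating receptors to Fcgr2b moved by more than 1 SD with Fcgr4 alone (0.63 for isotype minus PBS, -0.09 for anti–IL-4Rα minus isotype, 0.54 for anti–IL-4Rα minus PBS) and with Fcgr1 alone (0.52 for anti–IL-4Rα minus isotype, 0.28 for anti–IL-4Rα minus PBS).

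With the replicate number as a block, 2115, 1859 and 312 genes were called in the 3 comparisons and 6, 4 and 1 members. The replicate numbers do not pair the libraries: correlations between libraries of the same number, after centering, ran from -0.385 to 0.454, and 4 of 15 were highest with their own number.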

Other observations

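Fcmr, the receptor for IgM, was tested among the relatives of the Fc receptors and read 0.179, 0.441, 0.796, 1.87 and 0.738 CPM in the PBS libraries, 0.715, 0.348, 0.555, 3.93 and 0.325 CPM in the isotype libraries and 0.256, 15, 0.466, 0.272 and 0.189 CPM in the anti–IL-4Rα libraries (chosen after its values were seen). Replicate 2 of the anti–IL-4Rα group and replicate 4 of the isotype group were far above the others of their groups. Ighg1 read 29.5, 91.6, 1451, 44.5 and 172 CPM in the anti–IL-4Rα libraries, where replicate 3 was the highest, as it was for Jchain (24.9, 47.3, 185, 18.3 and 42.2 CPM).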
